A study of Mus musculus with 11 samples.

Results

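The epicardium, the outer skin of the heart, was followed through 8 marker genes in the left ventricles of mice. The 8 genes, Wt1, Msln, Upk3b, Upk1b, Tcf21, Aldh1a2, Tbx18 and Krt19, were taken as a named list of epicardial and mesothelial markers. All 8 were measured, among 18194 genes. Each was read by its brightest probe set with a single gene symbol, and gene positions are those of RefSeq on GRCm38.p6.

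The mice were of C57BL/6 background. Transgenic animals carried the CAG promoter, a floxed LacZ cassette and, behind it, the full-length mouse Hmgn5 cDNA with a FLAG tag, together with an alphaMHC-cre transgene that removes the cassette in heart muscle cells, so the epicardium itself is not the cell type in which cre is driven. The labels call the controls wild-type and name no cre in them, so cre, the vector and HMGN5, a nucleosome-binding protein, cannot be told apart as sources of a difference. There were 3 transgenic and 3 control hearts from adults, and 3 transgenic and 2 control hearts from newborns, called biological replicates in the labels, with 1 array each. The single Hmgn5 probe set read 8.26 to 8.71 in transgenic adults and 8.44 to 8.77 in control adults on the log2 scale, and 8.56 to 8.84 in transgenic newborns and 8.81 to 8.85 in control newborns. It was not higher in transgenic hearts, and whether it reads the transgene's message is not given in the sources used here, so it does not check the labels.

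The epicardium is a single layer of mesothelium, the flat epithelium that also lines the pericardial, pleural and peritoneal cavities. In the embryo some of its cells lose their epithelial character, move into the muscle wall and give rise to fibroblasts and to the mural cells of coronary vessels, while the layer sends growth signals, retinoic acid among them, to the muscle below. The layer persists after birth as a thin, quiet sheet, and several of its embryonic genes can be switched on again after injury.

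Adult arrays were uneven. The 18S ribosomal RNA control probe sets averaged 12.18 on transgenic adult replicate 3 and 11.89 on control adult replicate 3, against 7.64 to 8.58 on the other 4 adult arrays and 10.05 to 10.53 on newborn arrays. Adult results were therefore also computed without these 2 arrays, called the 18S set. The signal differs between ages too, and age cannot be told apart from how the arrays of each age were processed. The defining markers of heart muscle averaged 13.28 to 13.70 on the log2 scale over all 11 arrays. The 5 atrial markers, among them the light chain gene Myl7 and sarcolipin, averaged 7.70 to 10.25 in transgenic adults, 9.52 to 10.81 in control adults, 11.30 to 11.58 in transgenic newborns and 11.37 to 11.48 in control newborns.

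All 8 markers were lower in adult than in newborn hearts, with and without the transgene. Every newborn array read above every adult array for each of them. In transgenic hearts 8 of 8 fell with age at a limma adjusted p under 0.05, where 39.4% of all genes changed and 19.7% fell. In control hearts 8 of 8 fell, where 33.0% of all genes changed and 18.1% fell. In transgenic hearts all adult arrays lay below all newborn arrays for 24.7% of all genes. In control hearts they lay below for 28.5% and above for 35.1%. The median change of the 8 was -1.80 in transgenic and -1.73 in control hearts on the log2 scale, beside 0.09 over all genes in both. A bulk sample cannot tell fewer cells of the layer from less RNA per cell.

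**Figure D1:**
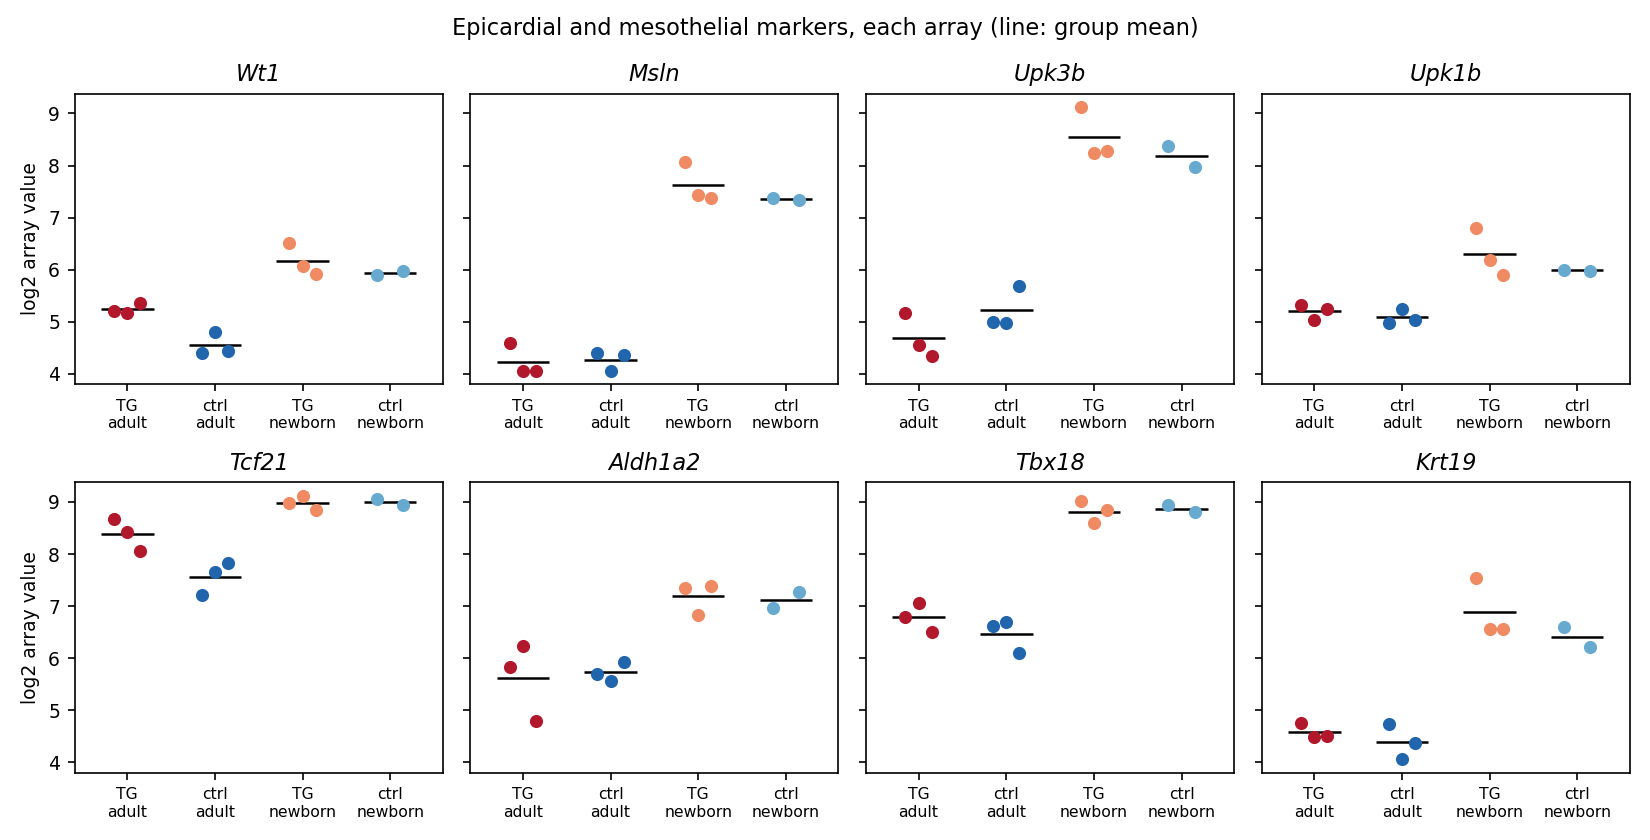
Log2 array value (vertical axis, the same for all panels) of the 8 markers on each array, with 3 transgenic (TG) adult, 3 control (ctrl) adult, 3 TG newborn and 2 ctrl newborn arrays from left to right and the group mean as a line. All newborn points lie above all adult points in each panel, and the adult TG and ctrl points separate for Wt1 and Tcf21.

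Msln, Upk3b and Krt19, genes of the mesothelial surface and skeleton, fell by over 2 on the log2 scale in both genotypes. Msln (chr17:25748613-25754378) encodes mesothelin, a membrane-anchored glycoprotein of mesothelial cells. It read 4.59, 4.05 and 4.06 in transgenic adults and 8.06, 7.43 and 7.37 in transgenic newborns. In control hearts it read 4.40, 4.05 and 4.36 in adults and 7.38 and 7.33 in newborns. The adult and newborn values were thus far apart in both genotypes, with little spread within an age. Msln fell by 3.39 on the log2 scale in transgenic hearts (SE 0.20, limma adjusted p = 9.05e-07), and fell by 3.09 in control hearts (SE 0.23, adjusted p = 4.38e-06).

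Upk3b (chr5:136038496-136044993) encodes a uroplakin, a membrane protein first known from the bladder lining and also made by mesothelium. It read 5.16, 4.55 and 4.33 in transgenic adults and 9.13, 8.24 and 8.27 in transgenic newborns, and 5.00, 4.97 and 5.69 in control adults and 8.37 and 7.98 in control newborns. Its adult values spread more than those of Msln, and control adult replicate 3 was the highest of them. Upk3b fell by 3.87 in transgenic hearts (SE 0.29, limma adjusted p = 4.64e-06), and fell by 2.96 in control hearts (SE 0.33, adjusted p = 7.95e-05). Its other probe set fell by 3.57 and 2.66.

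Krt19 (chr11:100140810-100145926) encodes keratin 19, an intermediate filament protein of simple epithelia. It read 4.75, 4.48 and 4.50 in transgenic adults and 7.54, 6.55 and 6.55 in transgenic newborns, and 4.73, 4.07 and 4.37 in control adults and 6.60 and 6.22 in control newborns. One transgenic newborn array, replicate 1, stood well above the other newborn hearts. Krt19 fell by 2.31 in transgenic hearts (SE 0.26, limma adjusted p = 7.75e-05) and fell by 2.02 in control hearts (SE 0.29, adjusted p = 4.41e-04).

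Upk1b (chr16:38773182-38800203) encodes a tetraspanin that pairs with uroplakin III proteins in the bladder. Its 4 probe sets disagreed in the size of the change. The brightest by mean read 5.31, 5.04 and 5.24 in transgenic adults and 6.80, 6.18 and 5.89 in transgenic newborns, and 4.98, 5.24 and 5.03 in control adults and 6.00 and 5.98 in control newborns, a fall of 1.10 (SE 0.20, limma adjusted p = 0.00157) and of 0.90 (SE 0.22, adjusted p = 0.00995). A 2nd probe set of Upk1b read 4.34, 4.34 and 4.15 in transgenic adults and 7.94, 6.86 and 6.56 in transgenic newborns, and fell by 2.84 in transgenic hearts and fell by 2.46 in control hearts. The 3rd fell by 2.49 and 2.15, while the 4th had changes of -0.19 and -0.35 that did not pass (adjusted p = 0.446 and 0.222 over all probe sets). The fall of the brightest probe set in control hearts did not pass without control newborn replicate 1 (adjusted p = 0.0723) or 2 (0.0555).

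The list holds 3 transcription factor genes. Tbx18 (chr9:87702800-87731260) encodes a T-box factor of the developing epicardium and of the sinus horn. It read 6.78, 7.05 and 6.51 in transgenic adults and 9.01, 8.59 and 8.85 in transgenic newborns, and 6.61, 6.70 and 6.10 in control adults and 8.94 and 8.80 in control newborns. Its levels separated cleanly by age and overlapped between genotypes. Tbx18 fell by 2.04 in transgenic hearts (SE 0.19, limma adjusted p = 1.87e-05) and fell by 2.40 in control hearts (SE 0.21, adjusted p = 1.51e-05). Its 2nd probe set fell by 1.70 and 1.91.

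Wt1 (chr2:105126529-105173614) encodes the zinc finger factor named for Wilms tumour, which marks the embryonic epicardium and keeps its cells able to enter the muscle wall. It read 5.20, 5.16 and 5.35 in transgenic adults and 6.51, 6.06 and 5.91 in transgenic newborns, and 4.40, 4.81 and 4.44 in control adults and 5.90 and 5.97 in control newborns. The 4 groups thus ran in order from control adults through transgenic adults to the newborns, and the 2 newborn groups overlapped. Wt1 fell by 0.93 in transgenic hearts (SE 0.16, limma adjusted p = 0.00151) and fell by 1.38 in control hearts (SE 0.18, adjusted p = 2.63e-04).

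Tcf21 (chr10:22817263-22820143) encodes a basic helix-loop-helix factor that epicardial cells need to become fibroblasts and that adult heart fibroblasts keep on. It read 8.68, 8.42 and 8.05 in transgenic adults and 8.98, 9.11 and 8.84 in transgenic newborns, and 7.22, 7.65 and 7.82 in control adults and 9.05 and 8.94 in control newborns. Its transgenic adult arrays lay close under the newborn ones and its control adult arrays well under them. Tcf21 fell by 0.59 in transgenic hearts (SE 0.18, limma adjusted p = 0.0268), and fell by 1.43 in control hearts (SE 0.21, adjusted p = 4.41e-04). The fall in transgenic hearts did not pass under 6 of 22 alternatives, which were cyclic loess scaling (-0.40, adjusted p = 0.111), the mean of the probe sets (-0.30, 0.0859), and leaving out transgenic adult replicate 2 (0.0514) or 3 (0.0656) or transgenic newborn replicate 1 (0.0693) or 2 (0.0939). It stayed below 0 in all 22. The 2nd Tcf21 probe set read 3.73 to 4.09 on all arrays and had changes of -0.01 and 0.08.

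Aldh1a2 (chr9:71215789-71296243) encodes retinaldehyde dehydrogenase 2, the main enzyme that makes retinoic acid in the embryonic epicardium. It read 5.83, 6.24 and 4.79 in transgenic adults and 7.35, 6.83 and 7.39 in transgenic newborns, and 5.69, 5.55 and 5.93 in control adults and 6.96 and 7.27 in control newborns. Transgenic adult replicate 3, of the 18S set, was the lowest array by a wide margin. Aldh1a2 fell by 1.57 in transgenic hearts (SE 0.31, limma adjusted p = 0.00277) and fell by 1.39 in control hearts (SE 0.35, adjusted p = 0.0112). The fall in control hearts did not pass without control newborn replicate 2 (-1.23, adjusted p = 0.0848).

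**Figure D2:**
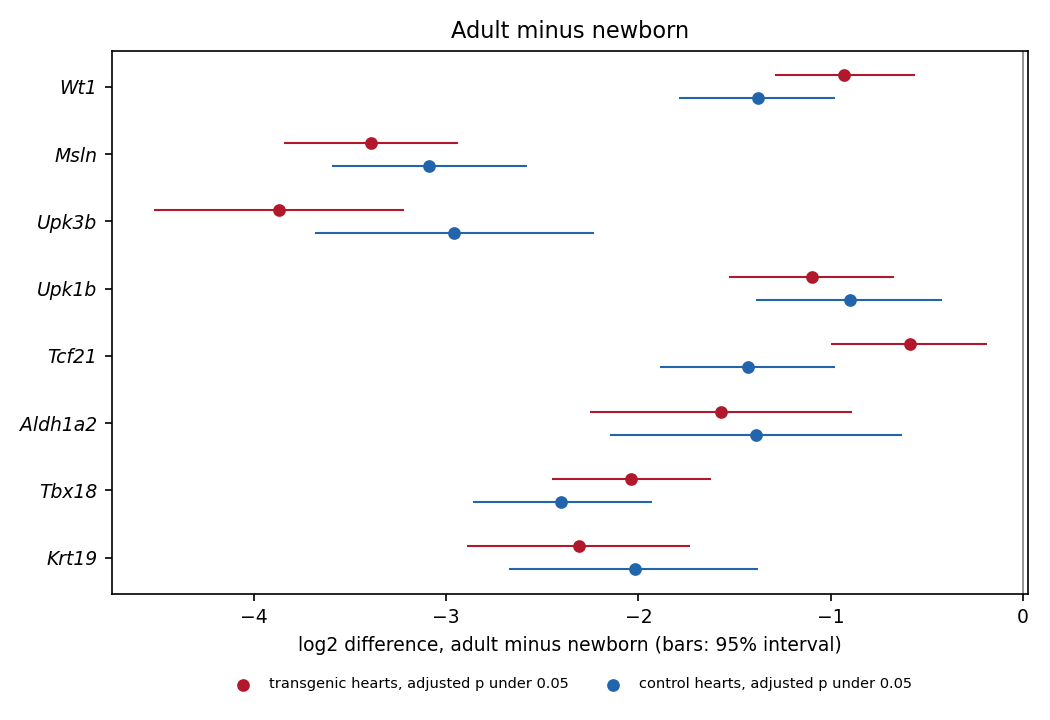
Log2 difference, adult minus newborn (horizontal axis), for the 8 markers in transgenic (red) and control (blue) hearts, with limma's 95% interval as bars; filled points passed at an adjusted p under 0.05. All 16 points lie below 0, from -3.87 for Upk3b to -0.59 for Tcf21, both in transgenic hearts.

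The adult signal was low for most of the 8. Wt1, Msln, Upk1b and Krt19 lay below the 40th percentile of the genes on all 6 adult arrays (5.38 to 5.62 on the log2 scale), and Upk3b on 5 of 6. Tcf21 and Tbx18 lay above it on 6 of 6 adult arrays and Aldh1a2 on 5 of 6. All 8 lay above it on 5 of 5 newborn arrays. No detection calls were used, so the low adult values are not shown to be above background, and no fold is given for the falls: for these genes the differences in array value may understate it. Without the 18S set, 8 of 8 members were still called as lower in adults in both genotypes.

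Only 4 of the 8 members, Upk3b, Aldh1a2, Tbx18 and Tcf21, have a start-site window in the RefSeq table (GRCm38.p6), which runs from 250 bases before to 50 after the start. The windows were searched on both strands for the TATA box (TATAAA), the CCAAT box (CCAAT), the GC box (GGGCGG), a pair of E-boxes of helix-loop-helix factors (CATCTG, then CAGCTG), the T-box site (AGGTGTGA) with its core (GGTGTG), which lies within it, and the EGR and WT1 site (GCGGGGGCG). There were 4 matches, all in Tbx18 and Aldh1a2, and they are shown because both genes fell with age. Each is 30 bases on the gene's strand with the match in capitals.
Tbx18, E-box, chr9:87731411-87731440, minus strand: gcagagacgagcCAGATGgcggcgcttttc
Tbx18, CCAAT box, chr9:87731330-87731359, minus strand: tagattctcctgATTGGtaaaccgtttcgg
Aldh1a2, CCAAT box, chr9:71215741-71215770, plus strand: tgggccgcacgtCCAATaagaagcgccccc
Aldh1a2, T-box core, chr9:71215809-71215838, plus strand: ccgcgcagcgccccgcgCACACCcacccgt
Counted from the gene's start, the Tbx18 matches begin at -168 and -87 and those of Aldh1a2 at -36 and 37. Of 32851 windows of this length, 17.2% hold CATCTG, 37.4% hold CCAAT and 19.0% hold GGTGTG. The matches describe letters and not sites in use.

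Other genes of the mesothelium fell with age as well. Of 18 genes on a wider mesothelial and epicardial list, all measured, 10 fell and 2 rose in transgenic hearts and 10 fell and 0 rose in control hearts (limma adjusted p under 0.05), with a median change of -0.73 and -0.90. Over all genes 19.7% fell and 19.7% rose in transgenic hearts, and 18.1% fell and 14.9% rose in control hearts. Bnc1, a zinc finger gene of mesothelium, fell by 2.00 in transgenic (SE 0.30) and 1.69 in control hearts (SE 0.34). Lrrn4, a surface protein gene of mesothelial cells, fell by 2.77 (SE 0.40) and 1.84 (SE 0.45), and the membrane protein gene Nkain4 by 1.19 (SE 0.17) and 0.86 (SE 0.19). The keratin genes Krt7 and Krt18 fell by 1.68 (SE 0.29) and 1.92 (SE 0.22) in control hearts. In transgenic hearts Krt7 fell by 1.66, and Krt18 had a change of -0.20 (adjusted p = 0.443) that did not pass. Lrrn4, Bnc1 and Krt7 were below the 40th percentile on all adult arrays, and Krt18 on control adult replicates 1 and 3. Bnc1 and Krt7 were also below it on every newborn array except transgenic newborn replicate 1. Such values are not shown to be above background. Igfbp6, which encodes a binding protein of insulin-like growth factor II, rose by 1.70 in transgenic hearts (SE 0.26), and so did Anxa8, of the annexins, by 0.75. Anxa8 is named after its values were seen. The adjusted p of the changes that passed was at most 0.0411.

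None of the 3 bladder relatives of Upk3b and Upk1b was called as lower. Upk3a, which read 3.99 to 4.81 on all 11 arrays and is not shown to be above background at either age, rose by 0.53 in transgenic hearts (SE 0.12, limma adjusted p = 0.00684) and by 0.46 in control hearts (SE 0.14, adjusted p = 0.0285, called in 16 of 21 alternatives), and Upk2 by 0.37 in transgenic hearts (SE 0.13, adjusted p = 0.0449), a call made in 6 of 22 alternatives. Upk1a had changes of 0.15 and 0.16 that did not pass.

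Genes of retinoic acid handling moved both ways. Of 16 measured of 18 listed, 6 rose and 4 fell with age in transgenic hearts and 5 rose and 2 fell in control hearts, beside 39.4% and 33.0% of all genes called in either direction. Crabp1, which encodes a cytosolic retinoic acid binding protein, fell in both genotypes. It read 4.17, 4.01 and 3.36 in transgenic adults and 9.43, 7.82 and 6.42 in transgenic newborns, and 3.70, 3.95 and 4.01 in control adults and 8.20 and 8.34 in control newborns. It fell by 4.04 (SE 0.56, limma adjusted p = 2.99e-04) and by 4.38 (SE 0.63, adjusted p = 4.18e-04). Aldh1a1, a paralogue of Aldh1a2 that also oxidises retinaldehyde, went the other way. It rose by 3.84 in transgenic hearts (SE 0.36, adjusted p = 2.24e-05) and by 2.52 in control hearts (SE 0.41, adjusted p = 9.07e-04). The retinoid receptor gene Rxrg rose by 2.63 (SE 0.17) and 3.35 (SE 0.18), and the retinaldehyde reductase gene Dhrs3 by 1.35 (SE 0.16) and 1.46 (SE 0.18).

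Genes of epicardium-derived cells and of the epithelial to mesenchymal transition fell as a majority of the calls. Of 20 measured, 10 fell and 1 rose in transgenic hearts and 9 fell and 0 rose in control hearts, where 19.7% and 18.1% of all genes fell. Vim, which encodes the mesenchymal filament vimentin, fell by 1.19 (SE 0.16) and 1.91 (SE 0.18), the nuclear receptor gene Nr2f2 by 1.56 (SE 0.22) and 1.69 (SE 0.24), and the adhesion gene Vcam1 by 1.23 (SE 0.23) and 1.66 (SE 0.25). Snai2, a repressor of epithelial genes, fell by 1.16 in transgenic hearts (SE 0.22). In control hearts Snai2 averaged 7.71 in adults and 8.82 in newborns. The matrix regulator gene Sox9 fell by 1.22 in control hearts (SE 0.15) and by 0.48 in transgenic hearts (SE 0.13). The limma adjusted p of the changes given with an SE was at most 0.0168. Markers of other cells moved with age too, and their part in these results was not tested: 5 of 5 macrophage markers rose in both genotypes, 3 of 5 mural markers fell and 1 rose in both, and of 9 fibroblast markers 3 rose and 3 fell in transgenic and 2 rose and 4 fell in control hearts. Of 5 endothelial markers 3 fell in transgenic and 1 in control hearts. Of 5 atrial markers 3 fell in transgenic and 1 in control hearts, with medians of -4.12 and -1.80. The part of atrial tissue in the falls with age was not tested either. Among all genes 19.7% fell and 19.7% rose in transgenic hearts, and 18.1% fell and 14.9% rose in control hearts.

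In adult hearts 2 of the 8 markers, Wt1 and Tcf21, were higher with the transgene, where 7.09% of all genes were called, 4.16% as higher and 2.93% as lower. Their transgenic and control arrays, listed above, did not overlap, and transgenic arrays lay above control ones in this way for 10.0% of all genes and below them for 7.94%. Wt1 averaged 5.24 ± 0.10 in transgenic and 4.55 ± 0.23 in control adults (SD, n = 3 each), a difference of 0.68 (SE 0.16, limma adjusted p = 0.0304). Tcf21 averaged 8.38 ± 0.32 in transgenic and 7.57 ± 0.31 in control adults (SD, n = 3 each), a difference of 0.82 or 1.76-fold (SE 0.18, limma adjusted p = 0.0223). The other 6 did not pass, with differences from -0.54 for Upk3b to 0.31 for Tbx18, and the median of the 8 was 0.15 beside 0 over all genes.

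Both calls are marginal. Wt1 was called in 11 of 22 alternatives, with differences of 0.54 to 0.81 and adjusted p from 0.0170 to 0.121, and Tcf21 in 16 of 22, with differences of 0.46 to 1.11 and adjusted p from 0.00177 to 0.131. With the 6 adult arrays alone neither passed (adjusted p = 0.0827 and 0.131). Neither passed without transgenic adult replicate 1 (adjusted p = 0.0688 for Wt1 and 0.0761 for Tcf21), without transgenic adult replicate 2 (0.0569 and 0.0613) or without control adult replicate 1 (0.0806 and 0.0557). Wt1 also did not pass without control adult replicate 3 (0.0895), transgenic newborn replicate 2 (0.0515) or either control newborn array (0.0537), and Tcf21 without control adult replicate 2 (0.0595). Wt1 was also lost with array weights (0.121) or a common array median (0.0528), and Tcf21 with its probe sets averaged (0.46, adjusted p = 0.0652). Within the 18S set, 1 array against 1, Wt1 differed by 0.91 and Tcf21 by 0.23, and among the other 4 adult arrays by 0.57 and 1.11. Without the 18S set Wt1 did not pass (limma adjusted p = 0.0915). Wt1 also lay below the 40th percentile on all 6 adult arrays.

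The 4 mesothelial surface and keratin members gave no call in adults. Msln differed by -0.04 (95% interval -0.49 to 0.42), Krt19 by 0.18 (-0.39 to 0.76), Upk1b by 0.11 (-0.33 to 0.54) and Upk3b by -0.54 (-1.19 to 0.11). Tbx18 differed by 0.31 (-0.11 to 0.72) and Aldh1a2 by -0.10 (-0.79 to 0.58). In Aldh1a2 the difference was 0.42 among the 4 adult arrays outside the 18S set and -1.14 within it, so the sign of its difference changes without the 18S set. In Upk3b the difference was -0.13 outside the set and -1.37 within it. The adult arrays with low Upk3b, transgenic replicates 2 and 3 (4.55 and 4.33), also had the lowest mean of the atrial markers (7.76 and 7.70). Transgenic adult replicate 1 (5.16) had an atrial mean of 10.25, and control adult replicates 1 to 3 (5.00, 4.97 and 5.69) had means of 9.52, 9.54 and 10.81. The part of atrial tissue in the Upk3b values was not tested.

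Several genes of the wider list were higher in transgenic adults. Of its 18 genes, 4 rose, 1 fell and 13 did not pass, beside the 7.09% of all genes called, and the median difference was 0.26. Among those that did not pass were 4 genes named above for their fall with age. They were Lrrn4 (-0.47), Nkain4 (-0.25), Bnc1 (0.09) and Krt7 (0.25). Igfbp6 read 9.36, 9.26 and 9.39 in transgenic and 7.29, 7.41 and 7.45 in control adults, a rise of 1.95 (SE 0.26, limma adjusted p = 0.00142). Krt18, which encodes keratin 18, the partner of keratin 8 in simple epithelia, read 7.28, 7.22 and 6.60 in transgenic and 5.24, 5.64 and 5.31 in control adults, a rise of 1.64 (SE 0.20, limma adjusted p = 0.00100). Both sets of arrays were well apart, and both genes were called in 22 of 22 alternatives. Krt18 lay below the 40th percentile on control adult replicates 1 and 3.

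Sema3d, which encodes a secreted guidance cue, rose by 1.71 (SE 0.30, limma adjusted p = 0.00645) and was called in 21 of 22 alternatives. It differed by 2.23 among the 4 adult arrays outside the 18S set and by 0.66 within it. Anxa8 rose by 1.19 (SE 0.26, adjusted p = 0.0187) and was called in 17 of 22. It did not pass with the adult arrays alone (0.102) or without transgenic adult replicate 1 (0.0620) or 2 (0.0539) or control adult replicate 1 (0.0506) or 2 (0.0798). Efemp1, a gene of the fibulin family of matrix proteins, was the only one of the list that fell, and is named here after its values were seen. It read 5.42, 5.17 and 3.42 in transgenic and 7.47, 6.63 and 6.49 in control adults, a fall of 2.19 (SE 0.51, adjusted p = 0.0246). With the 6 adult arrays alone, 2 of the 18 rose and 0 fell.

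Of the retinoic acid genes, Aldh1a1 rose and Rxrg fell in transgenic adults. Aldh1a1 read 10.52, 10.44 and 10.15 in transgenic and 9.38, 8.41 and 8.49 in control adults, a rise of 1.61 (SE 0.36, limma adjusted p = 0.0223) that did not pass in 4 of 22 alternatives, without transgenic adult replicate 1 (adjusted p = 0.0732) or 2 (0.0617) or control adult replicate 2 (0.0939) or 3 (0.0735). Rxrg fell by 1.04 (SE 0.17, adjusted p = 0.00379) and was called in 22 of 22. The retinoic acid degrading enzyme gene Cyp26b1 differed by -0.61 (SE 0.19, adjusted p = 0.0767) and the binding protein gene Crabp2 by 0.22 (SE 0.11, adjusted p = 0.292). Of the 20 genes of epicardium-derived cells, 2 rose and 0 fell, a share near the 7.09% of all genes called. Vim rose by 0.81 (SE 0.16, adjusted p = 0.0121) and Sox9 by 0.59 (SE 0.13, adjusted p = 0.0222). Vim did not pass without control adult replicate 2 (0.0560), nor Sox9 without it (0.0885) or transgenic adult replicate 1 (0.0705) or 2 (0.0710) or with its probe sets averaged (a difference of 0.29, adjusted p = 0.26), and 0 of the 20 passed with the 6 adult arrays alone. None of the 3 bladder uroplakin genes passed.

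Mural, fibroblast and macrophage markers were read in the same adult comparison, and their part in the results above was not tested. Over all genes 4.16% were called as higher and 2.93% as lower. The mean level of the 5 mural markers was 8.85 to 9.09 in transgenic and 7.92 to 8.39 in control adults, with 3 of 5 called as higher and 0 as lower. That of the 9 fibroblast markers was 10.04 to 10.74 and 9.33 to 10.08, with 1 called as higher, and that of the 5 macrophage markers was 8.62 to 9.59 and 8.54 to 8.94, with 1 called as higher. The transgenic and control ranges overlapped for both of these lists. The lowest value of any fibroblast, mural or macrophage marker on any array was 4.34. Of 5 endothelial markers 1 fell and 0 rose. The atrial list had 1 rise, Nppa (2.35, adjusted p = 8.41e-05), but a median of -1.88, with Sln at -3.97 (adjusted p = 0.0575) and Myl7 at -3.23 (0.0605), and the heart muscle, adipocyte, lung and thymus lists had no call. Control adult replicate 3, which read highest among adults for Upk3b, also had the highest mean of the 5 adipocyte markers, 8.17, against 6.76 to 6.94 on the other adult arrays, and the highest atrial mean, 10.81. Of the 5 adipocyte markers it read highest among adult arrays for 2, Adipoq (7.89) and Ucp1 (7.62), and lowest for the other 3. The part of fat or atrial tissue in its Upk3b value was not tested.

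**Figure D3:**
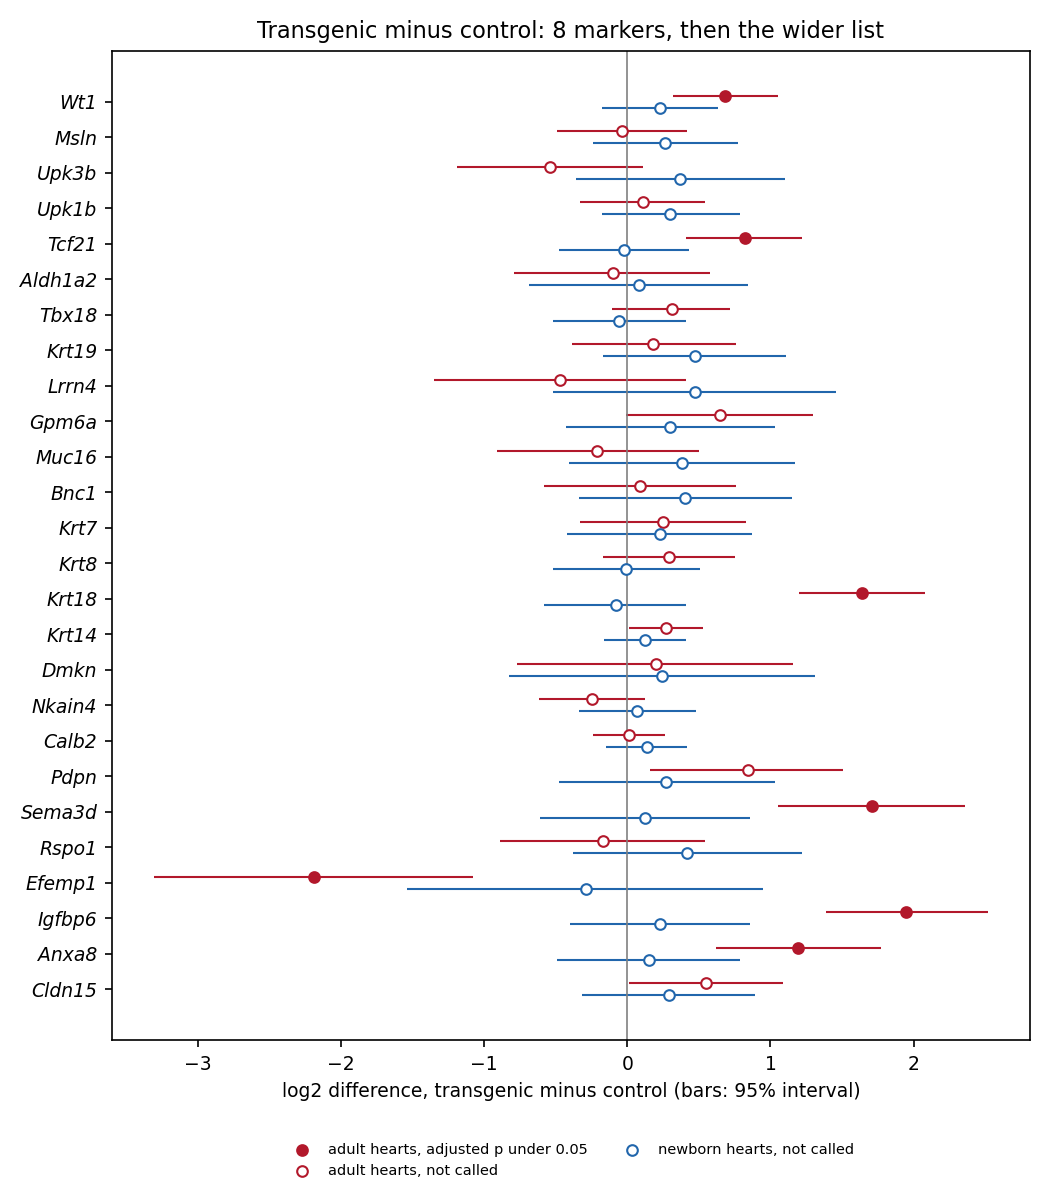
Log2 difference, transgenic minus control (horizontal axis), for the 8 markers and then the 18 genes of the wider list, in adult (red) and newborn (blue) hearts, with limma's 95% interval as bars; filled points passed at an adjusted p under 0.05. Wt1, Tcf21, Krt18, Sema3d, Igfbp6 and Anxa8 are filled to the right of 0 and Efemp1 to the left, all in adults, and no newborn point is filled.

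In newborn hearts 0 of the 8 markers and 0 of all 18194 genes (0%) passed with limma, and 198 genes had an unadjusted p under 0.05, none of them a member. Krt19 had the smallest unadjusted p of the 8, 0.136, with a difference of 0.47 (95% interval -0.17 to 1.11). The differences of the others ran from -0.06 for Tbx18 to 0.37 for Upk3b, and the median of the 8 was 0.24 beside 0 over all genes. For 0 of the 8 did the transgenic and control newborn arrays not overlap, where transgenic ones lay above for 11.1% of all genes and below for 9.83%.

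For Krt19, Upk3b, Upk1b, Wt1 and Msln the newborn differences were smaller without 1 array. Transgenic newborn replicate 1 was the highest of the 5 newborn arrays for 6 of 8 markers, where it was the highest for 20.9% of all genes. It stood above the mean of the other 4 newborn arrays by 1.06 for Krt19, 0.92 for Upk3b, 0.79 for Upk1b, 0.68 for Msln, 0.55 for Wt1, 0.24 for Aldh1a2 and 0.21 for Tbx18, and by -0.01 for Tcf21. On each of the other newborn arrays the median deviation of the 8 lay between -0.18 and -0.14. Transgenic newborn replicate 1 is in the mean that each of them is compared with, which pulls their deviations down. Without this array the differences became 0.14 for Krt19 (95% interval -0.35 to 0.63), 0.08 for Upk3b, 0.05 for Upk1b and Wt1, and 0.04 for Msln. Those of Aldh1a2, Tcf21 and Tbx18 became 0.00, -0.02 and -0.15, and the median of the 8 was 0.05. The array was picked after it was seen to read highest for 6 of 8 markers. For those 6, leaving it out could only lower the transgenic mean. The direction of their shifts was thus fixed by the choice.

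The wider list followed the same array. Transgenic newborn replicate 1 was the highest of 5 for 16 of its 18 genes, with Dmkn 1.84, Lrrn4 1.66, Rspo1 1.38, Bnc1 1.31 and Muc16 1.31 above the mean of the others. The array and these 5 genes were picked after their values were seen. With this array 15 of the 18 genes read higher in transgenic than in control newborns, and without it 5 did. The median difference was 0.23 with it and -0.06 without. For the 16 genes where it read highest, the choice of array fixed the direction of this shift. Fibroblast markers were the highest there for 7 of 9 genes and atrial markers for 4 of 5, with medians of 0.23 and 0.18 above the other arrays, and heart muscle markers were the lowest there for 5 of 6, with a median of -0.05. Of all 18194 genes, 3808 read highest on this array and 4611 read lowest. Lung markers were the highest there for 1 of 6, the secretoglobin gene Scgb1a1 (4.20 against 3.45 to 4.10), and thymus markers for 1 of 4. Outside these lists the secretoglobin genes Scgb3a2 and Scgb3a1, picked after their values were seen, read 2.64 and 1.44 above the mean of the others. The array's 18S signal, 10.05, was close to that of the others, 10.08 to 10.53. Xist, the transcript of the inactive X chromosome, read 12.20 on it, 12.20 on control newborn replicate 1 and 6.90 to 8.65 on the other 3. The mean level of the 8 markers was 7.92 on transgenic newborn replicate 1, 7.40 on control newborn replicate 1 and 7.31 to 7.38 on the other 3. The part of these in the result was not tested.

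**Figure D4:**
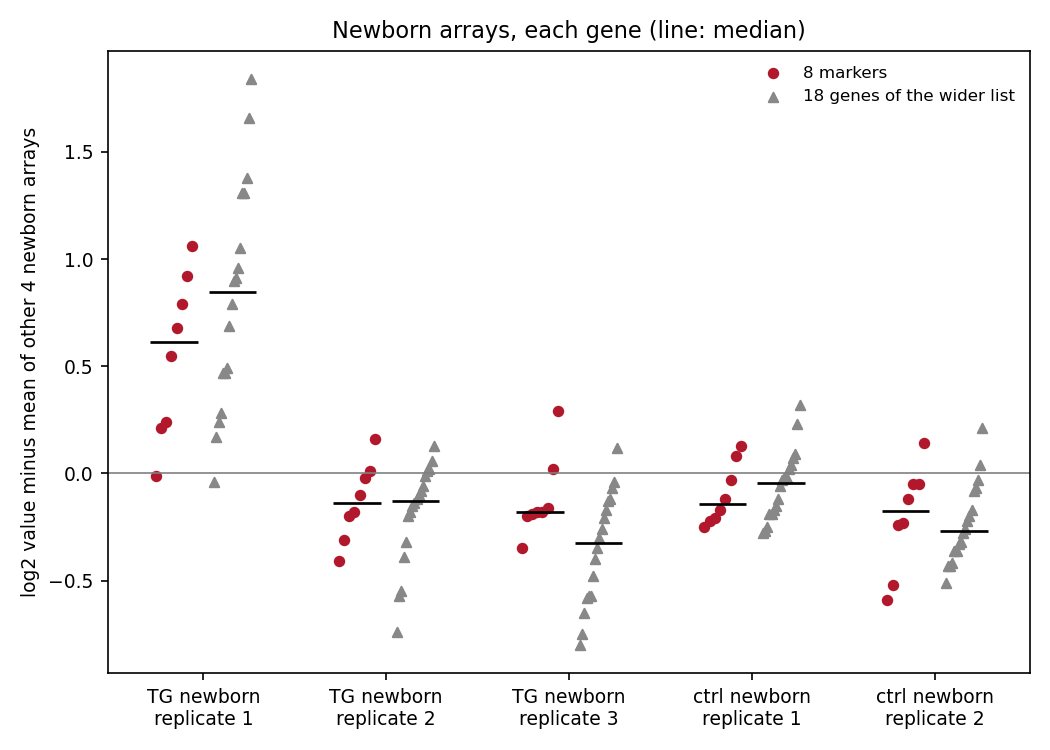
Log2 value of each gene on a newborn array minus its mean on the other 4 newborn arrays (vertical axis), for the 8 markers (red circles) and the 18 genes of the wider list (grey triangles), with transgenic (TG) left of control (ctrl) arrays and the median as a line. TG newborn replicate 1 has medians of 0.62 and 0.85, and the medians of the other arrays all lie below 0. Replicate 1 is in the mean that each other array is compared with, which pulls those medians down.

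The difference between the adult and the newborn effect of the transgene was called for 0 of 8 markers, where it was called for 0.687% of all genes. Tcf21 came nearest, with a difference of 0.84 (SE 0.28, limma adjusted p = 0.273). It passed with array weights (0.88, adjusted p = 0.0346) and without the 18S set (1.13, adjusted p = 0.0199). For Wt1 the difference was 0.46 (adjusted p = 0.623). That the transgene acts differently at the 2 ages is thus not shown for these genes. Of the wider list, Krt18 passed, with a difference of 1.72 (SE 0.30, adjusted p = 0.0299), a call lost in 9 of 21 alternatives (adjusted p up to 0.241, without control newborn replicate 1). Its newborn values were 7.46, 7.11 and 7.13 in transgenic and 7.52 and 7.11 in control hearts.

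Within groups the 8 markers did not vary as 1 block. The deviations of 11 arrays from their group means correlated at 0.88 between Msln and Krt19, 0.84 between Msln and Upk3b and 0.90 between Wt1 and Upk1b, while Wt1 with Msln gave 0.31 and Wt1 with Tcf21 0.02. On newborn arrays alone, Wt1, Msln, Upk3b, Upk1b and Krt19 correlated at 0.86 to 1.00 with each other, with transgenic newborn replicate 1 far from the other arrays, and on adult arrays alone at -0.78 to 0.78. These are descriptions over arrays that share the same platform and scaling.

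By the same measure, and leaving out genes of low signal, the genes nearest to the mean of Wt1, Msln, Upk3b, Upk1b and Krt19 among 11873 were Cemip (Pearson r = 0.95, Spearman rho = 0.89), Pantr1 (0.93, 0.93), Tmeff2 (0.93, 0.87), Nkain4 (0.92, 0.85), Boc (0.92, 0.90), Igfbp6 (0.91, 0.80), Mycn (0.91, 0.89) and Fbxo5 (0.91, 0.81). Of these, Nkain4 and Igfbp6 are on the wider list. With transgenic newborn replicate 1 left out of the correlation the Pearson values were 0.77 to 0.87. The group means still included that array, so these values are not free of it and do not show that the likeness holds without it. The nearest gene to Tcf21 was Kcnmb4 (0.95), to Tbx18 Zfp157 (0.98), to Aldh1a2 Gtf2e1 (0.97), to Wt1 Sars (0.96), to Msln D17H6S56E-5 (0.95), to Upk3b Kif17 (0.96), to Upk1b Igfbp6 (0.94) and to Krt19 Il18 (0.93), each over 11 arrays.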

How the data were processed

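Gene expression was measured on Affymetrix mouse arrays in 11 left ventricles. The submitters' processing notes name RMA, affy and limma, without versions. The authors deposited a log2 value for each of 45101 probe sets, and array medians were 5.12 to 5.18. The platform annotation gives 1 symbol to 34958 probe sets, several to 932 and none to 9211, and 34754 of the first matched the RefSeq table of GRCm38.p6 by gene ID. Each gene was read by its single-symbol probe set with the highest mean over 11 arrays, which left 18194 genes.

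All 11 arrays entered a single limma fit of group means (version 3.58.1, under R 4.3.3; 7 residual and 3.85 prior degrees of freedom), 2-sided, with Benjamini-Hochberg adjustment over all genes in each of 5 contrasts. It was tested on simulated data. A fold is taken from the difference between the groups' mean log2 values. Arrays have no read depth, so their number limits the precision. The alternatives were the replicate block, other filters, probe-set rules, variance models and scalings, the 18S set of adult arrays as a factor or left out, and leaving out each array.

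The members, the gene lists and the named-gene rule were chosen with earlier results of these data known. The rule names all 8 members, up to 4 genes with the smallest p per neighbouring list and contrast, and the genes most like the members. Lists of heart muscle, atrial, fibroblast, endothelial, mural, macrophage, adipocyte, lung and thymus markers served to describe the samples.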

Additional observations from a re-analysis of the deposited data

Results flagged for a closer look

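The effect of the transgene on Krt18 differed between ages by a test of the difference itself. It was 1.72 higher on the log2 scale in adults than in newborns (SE 0.30, limma adjusted p = 0.0299), with a rise of 1.64 in adults and a difference of -0.08 in newborns. In adults 3 of 3 transgenic arrays read above all 3 controls, as they did for 10.0% of all genes. Control adult replicates 1 and 3 (5.24 and 5.31) lay below the 40th percentile of their arrays (5.54 and 5.40), and replicate 2 (5.64) above it (5.47). Values below it are not shown to be above background. The call was made in 12 of 21 alternatives, with differences of 1.52 to 1.94 and adjusted p from 0.00221 to 0.241. It was lost without either control newborn array (adjusted p = 0.241 and 0.0781), without transgenic newborn replicate 2 or 3 (0.0982 and 0.106), without transgenic adult replicate 1 or 2 (0.0660 and 0.0620), without control adult replicate 2 or 3 (0.0510 and 0.0575) and over all probe sets (0.0590). Groups of 3 or 2 arrays were too small to look for single outlying arrays by a formal rule.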

How the results depend on the processing

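The falls with age kept their direction for all 8 markers in all 22 alternatives. In adults the 2 markers called became 1 with probe sets averaged by gene, array weights, a common array median or without the 18S set, and 0 with the compared groups alone. For the difference between ages the 0 markers called became 1 with array weights or without the 18S set. Over all genes, calls in adults moved to 373 with the compared groups alone, 2625 with the 18S set as a factor and 2183 without it. Those for the difference moved to 841 with array weights, 494 with the 18S factor and 711 without the set. Over all probe sets 11269 were called for age in transgenic and 9349 in control hearts, where more features were tested. Leaving out single arrays gave 0 to 2 markers in adults, 7 to 8 for age in transgenic and 6 to 8 in control hearts and 0 to 0 elsewhere. Over all genes it gave 746 to 2267 in adults, 6 to 540 for the difference, 4971 to 7981 and 2829 to 7430 for age in transgenic and control hearts and 0 to 0 in newborns. In adults the highest count of all genes was without transgenic adult replicate 3 and the lowest without control adult replicate 2. For the difference they were without transgenic adult replicate 3 and without control newborn replicate 1, and every other array but transgenic adult replicate 2 and control adult replicate 3 moved the 125 by over 1.5 times. For age in control hearts leaving out control newborn replicate 1 or 2 left 2829 or 3654. The cause of these moves was not tested. The difference between ages needs all 4 groups, so it has no value with the compared groups alone.

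Values that were not called turned in sign in a few settings. In newborns Tcf21 and Tbx18 became 0.01 and 0.05 with the replicate block and 0.08 and 0.03 with the mean of probe sets, and Tcf21 and Aldh1a2 became 0.01 and -0.01 with array weights. Aldh1a2 was 0.00 with the newborn arrays alone and without transgenic newborn replicate 1, a setting chosen after seeing the data. In adults Msln and Aldh1a2 became 0.04 and 0.31 with array weights and 0.09 and 0.42 without the 18S set, and the Aldh1a2 difference between ages became 0.32 and 0.34. Leaving out single arrays gave -0.21 to 0.06 for Msln and -0.42 to 0.31 for Aldh1a2 in adults, -0.09 to 0.05 for Tcf21, -0.08 to 0.26 for Aldh1a2 and -0.15 to 0.06 for Tbx18 in newborns, and -0.40 to 0.06 for Upk1b, -0.49 to 0.23 for Aldh1a2 and -0.48 to 0.04 for Krt19 in the difference. The labels give same-numbered arrays no shared source, and their deviations from the group means correlated at 0.31, -0.06 and 0.45 in adults, so the numbers were not taken to pair the arrays. With the replicate block 2 markers were called in adults, 0 in newborns and 8 for each age contrast, as without it. The number of arrays limits the precision, and no detection calls were used.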

Other observations

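The genes that read highest on transgenic newborn replicate 1 relative to the other 4 newborn arrays were looked up after the values were seen. After Xist (3.24 above their mean on the log2 scale), they were Scgb3a2 (2.64), a secretoglobin gene of airway epithelium, then Dmkn (1.84), Tmeff2 (1.79), Pantr1 (1.75), Crabp1 (1.74), Lrrn4 (1.66), Mme (1.62), Osr1 (1.58) and Mycn (1.58). Of the 18194 genes, 52 read over 1 above the mean of the other 4. Among the 8 markers Krt19 ranked 41st and Upk3b 66th by this difference.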
